A study of Mus musculus with 24 samples.

Results

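The genes described here encode membrane transporters of the liver: the ATP-binding cassette (ABC) proteins of subfamilies A to G, the organic anion transporting polypeptides (OATPs, gene symbols starting with Slco) and the organic ion carriers of the Slc22a family. They were chosen by symbol alone, leaving out the sterol and bile salt transporters Abca1, Abcg1, Abcg5, Abcg8 and Abcb11. In the table of deposited counts 86 symbols fit, and 61 of them (38 ABC, 7 Slco and 16 Slc22a genes) had at least 1 count in at least 12 libraries. The other 25 had at most 12 counts in any library and are not described. In all, 17913 genes passed the same count minimum and were tested.

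Whole livers of C57BL/6J mice were sequenced after 20 weeks on a high-fat diet (FFD, 12 libraries) or a control chow diet (Ctrl, 12 libraries). The FFD held 40% fat with palm oil, 20% fructose and 2% cholesterol, and feeding began at 8 to 10 weeks of age. Diet was the one labelled difference. The series had 6 mice of each sex on each diet, but the labels did not give the sex of a library.

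OATPs and Slc22a carriers sit mainly in the sinusoidal membrane of the hepatocyte and take up bile salts, steroid conjugates, organic cations, carnitine and drugs from blood. ABC proteins use ATP to move substrates out: those of the canalicular membrane secrete phospholipid, conjugates and drugs into bile, several Abcc proteins of the basolateral membrane return conjugates to blood, and other ABC proteins work in peroxisomes, mitochondria or lysosomes. In mouse liver a number of these genes, Slco1a1 and Slco1a4 among them, are known to be transcribed at different levels in males and females.

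Depth was 14468418 to 22112552 counts per library, and levels are given as CPM, a gene's counts scaled to a common library total after TMM, edgeR's correction for differences in RNA composition. TMM factors were 0.679 to 1.01 on Ctrl and 0.994 to 1.34 on FFD, with Ctrl replicate 10 lowest. Replicates 1 to 6 of both diets had 2664 to 6285 counts of Xist, a transcript of the X chromosome, and 0 of the Y-linked Ddx3y, whereas replicates 7 to 12 had 0 to 3 and 448 to 1016. Each gene was therefore also tested in the 12 libraries over 1000 Xist counts (Xist-high) and the 12 under (Xist-low), 6 per diet in each. Values by set are given for many of the genes. The labels do not name these sets, whose size equals the 6 mice of each sex on each diet in the series. Nothing in the labels ties each library to a separate animal, so p-values measure the spread between libraries. A pair of libraries stood apart. FFD replicate 3, an Xist-high library, had 66.2 CPM of the neutrophil gene S100a8 against at most 1.46 in the other 23 libraries. FFD replicate 9, an Xist-low library, had 48.1 CPM of the cholangiocyte gene Krt19 against at most 7.57 elsewhere. Of 8 hepatocyte markers none was at 0, and together they made up 35635 to 128237 CPM of each library.

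Across all 24 libraries, 8 of the 61 transporter genes were called higher and 9 lower on FFD by edgeR's quasi-likelihood test. A call needed a Benjamini-Hochberg adjusted p no larger than 0.01 and a log2 fold change beyond 0.5 in either direction. These are 13.1% and 14.8% of the members, beside 13.2% and 4.99% of all tested genes. Of the 17 calls, Abcc12, Abcc1, Abcg3, Abcc5, Slc22a17, Slco3a1, Abcc3 and Abca9 rose, and Slco1a1, Slc22a28, Slc22a7, Slc22a30, Abca6, Abca8a, Abcb10, Abcd3 and Slco1b2 fell. The median log2 fold change of the members was -0.11, against -0.03 over all tested genes. In 3 members the diets did not overlap at all: Abcc1 was higher, and Abcd3 and Slc22a30 were lower, in every FFD library than in every Ctrl library. That is 4.92% of the members, beside 1.89% of all tested genes. Scaling by library totals alone moved the median of all tested genes from -0.03 to 0.26 and the members' calls to 12 higher and 6 lower, and Slco1b2, Abcd3 and Abcb10 were the 3 falls then lost. Over all tested genes that scaling changed 2372 higher and 894 lower calls into 3827 and 226.

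Most calls came with the Xist-low libraries. There, 11 members rose and 13 fell (18.0% and 21.3%), beside 14.4% and 7.99% of all tested genes, and 19 members did not overlap between the diets (31.1%, beside 22.3%). With library totals as the scale the Xist-low calls were 15 higher and 6 lower, and the falls left were those of Slco1a1, Slco2a1, Slc22a7, Slc22a28, Slc22a30 and Abcd3. In the Xist-high libraries 2 rose and 5 fell, beside 2.9% and 0.882% of all tested genes, and 4 did not overlap (6.56%, beside 5.9%). Leaving out the Xist-high FFD replicate 3 left the 5 falls called and raised the rises from 2 to 7, adding Abcc3, Abcc4, Abcc12, Abcb1a and Abcg2. The Xist-high calls also rested on other libraries: without FFD replicate 1, FFD replicate 6 or Ctrl replicate 2 no member was called. All 9 falls of the 24 libraries, and 7 of the 8 rises, were also called in the Xist-low libraries, which are a subset of the 24. The diet effect itself differed between the sets for 7 members (interaction of diet and set, adjusted p at most 0.01), 11.5% of the members beside 4.06% of all tested genes. They were Slco1a1, Slc22a7, Slc22a30, Slc22a27, Abcb1a, Abcg3 and Abcc5.

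**Figure D1:**
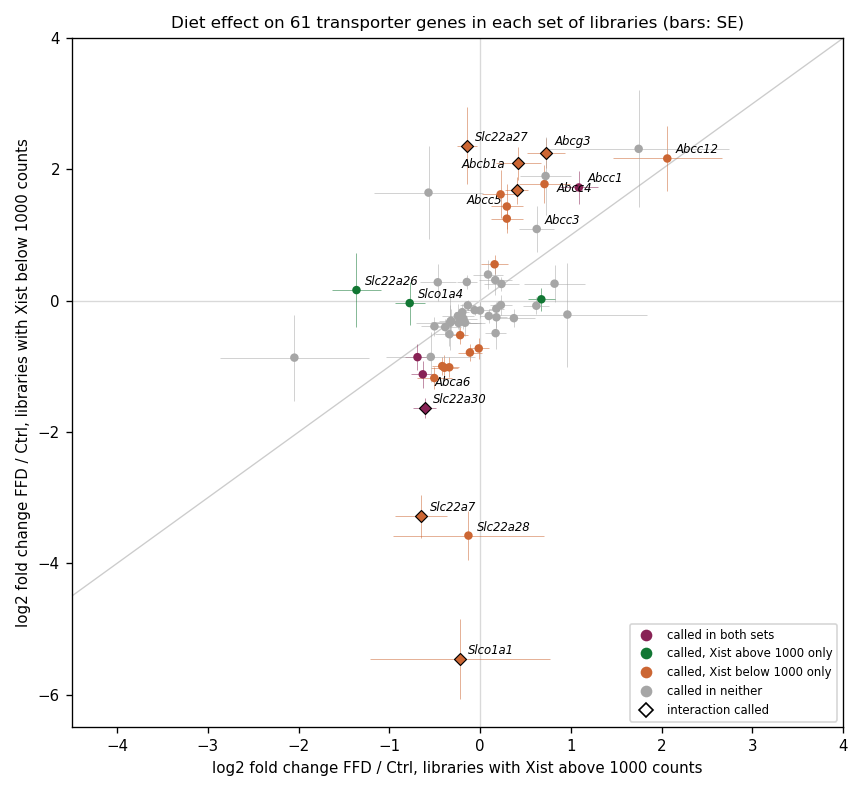
Log2 fold change of FFD over Ctrl in the 12 libraries with Xist above 1000 counts (x axis) and the 12 with Xist below (y axis) for the 61 transporter genes, with bars of 1 standard error; colours mark calls within a set and diamonds the 7 genes called in the interaction test. Slco1a1, Slc22a7 and Slc22a28 lie far below the diagonal, and Abcb1a, Abcg3, Abcc5 and Slc22a27 above it.

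The levels of cell type markers moved with diet as well. On FFD 6 of 8 hepatocyte markers fell, and their summed level was 78135 to 94776 CPM in the Xist-low Ctrl libraries against 35635 to 45211 in the Xist-low FFD libraries. The Xist-high values were 90948 to 128237 on Ctrl and 64397 to 89216 on FFD. The median log2 fold change of the 8 markers was -0.71 over all libraries, -0.43 in the Xist-high and -0.98 in the Xist-low libraries. Markers of monocyte-derived macrophages rose for 7 of 7 genes over all libraries, those of activated stellate cells for 6 of 7, and those of cholangiocytes for 4 of 6. Of all tested genes 13.2% were called higher and 4.99% lower. In the Xist-high libraries 1 of 8 hepatocyte markers fell, and 5 of 7, 5 of 7 and 0 of 6 of these lists rose. The Xist-low counts were 6 of 8, and 7 of 7, 6 of 7 and 3 of 6. Cholangiocyte markers summed to 16.6 to 27.3 CPM on Ctrl and 19.9 to 32.4 on FFD in the Xist-high libraries. In the Xist-low libraries the sums were 19.8 to 39.2 and 31.7 to 205 CPM. The macrophage markers summed to 59.9 to 123 CPM in the Xist-low Ctrl libraries and 427 to 832 in the Xist-low FFD libraries, and to 87.2 to 228 and 285 to 386 in the Xist-high libraries. The activated stellate markers summed to 33.7 to 190 and 337 to 609 CPM in the Xist-low libraries, and to 40.4 to 99.8 and 147 to 292 in the Xist-high libraries. In whole liver, fewer cells of a type and less RNA per cell cannot be told apart, and the part of these shifts in the transporter changes was not tested.

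Among the OATP uptake carriers, the largest difference was that of Slco1a1 (ENSMUSG00000041698, chr6:141907282-141946962, minus strand, GRCm38), a sinusoidal carrier of bile salts and steroid conjugates. The 250 bases before its start (RefSeq, GRCm38.p6, chr6:141946963-141947212, minus strand) are shown because no other member fell as far. Capitals mark the nuclear receptor hexamer AGGTCA, at 134 and 24 bases before the start, and TATAAA, at 209 and 99 bases, each read on either strand.
Slco1a1: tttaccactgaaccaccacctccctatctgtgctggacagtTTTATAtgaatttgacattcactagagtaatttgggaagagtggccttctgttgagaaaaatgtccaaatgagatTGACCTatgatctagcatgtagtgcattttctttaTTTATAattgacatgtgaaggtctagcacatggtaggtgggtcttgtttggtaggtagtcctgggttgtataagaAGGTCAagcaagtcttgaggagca
AGGTCA occurred in 14% and TATAAA in 12.4% of all 32851 RefSeq promoters searched over the same length, so either match is common, and a match is a description of letters only.

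In the Xist-low Ctrl libraries Slco1a1 had 292, 372 and 426 CPM as lowest, median and highest value, and in the Xist-low FFD libraries 1.46, 4.73 and 29.3. The highest FFD library, replicate 7, was still far under the lowest Ctrl library, and the other 5 FFD libraries had at most 5.09. The log2 fold change was -5.46 (SE 0.60, adjusted p = 1.23e-05), or 43.9-fold lower, and without FFD replicate 7 it was -6.48 (SE 0.31, adjusted p = 1.49e-07), or 89.6-fold lower. The Xist-high libraries held little Slco1a1 on either diet: 0.508, 1.89 and 13.8 CPM on Ctrl, and 0.251, 0.44 and 20.2 on FFD. The 20.2 belongs to FFD replicate 3, and the other 5 FFD libraries had at most 1.51. With that library the Xist-high log2 fold change was -0.22 (SE 0.99, adjusted p = 0.915), and without it -2.97 (SE 0.80, adjusted p = 0.0200), still short of a call. The difference between the sets was -5.24 on the log2 scale (SE 1.23, adjusted p = 0.00731), but -2.50 (SE 1.15, adjusted p = 0.173) without FFD replicate 3, and 14 of the 24 fits that left out a library lost this call.

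Slco1a4 and Slco1b2, carriers of overlapping substrates in the same stretch of chromosome 6, differed from Slco1a1 in where they were high. Slco1a4, whose coding sequence was 86.7% identical to that of Slco1a1, had 109, 140 and 191 CPM in the Xist-high Ctrl libraries and 53.5, 81.4 and 110 in the Xist-high FFD libraries. Only the highest of these 6 FFD libraries, replicate 3, reached the Ctrl range, and the log2 fold change was -0.78 (SE 0.17, adjusted p = 0.00737). This call was lost in 8 of the 12 fits that left out a library. The Xist-low libraries had 6.01 to 25.9 CPM on Ctrl and 10.2 to 34.5 on FFD, with a log2 fold change of -0.04 (SE 0.33) that turned to 0.37 under scaling by library totals.

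Slco1b2, the most abundant OATP per length in every set and diet, fell in the Xist-low libraries from 750, 843 and 1145 CPM to 245, 482 and 596, without overlap. Its log2 fold change was -1.02 there (SE 0.20, adjusted p = 0.000969) and -0.39 (SE 0.15, adjusted p = 0.0887) in the Xist-high libraries. The medians of the hepatocyte markers were -0.98 and -0.43 in these sets, and a link between them and Slco1b2 was not tested. Slco2b1, a carrier of steroid sulfates and drugs, fell in the Xist-low libraries from 179 to 295 CPM down to 96.6 to 172, by 0.73 on the log2 scale (SE 0.15, adjusted p = 0.00198). The Xist-high libraries had 216 to 290 CPM on Ctrl and 180 to 264 on FFD. The prostaglandin carrier Slco2a1, named after its values were seen, fell in the Xist-low libraries from 25.1 to 52.2 CPM down to 13.1 to 21, by 1.18 on the log2 scale (SE 0.17, adjusted p = 0.000106).

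Slco3a1 was the 1 OATP that rose. Its Xist-low values were 2.92, 3.65 and 5.78 CPM on Ctrl and 5.75, 8.89 and 26.5 on FFD, and the highest was FFD replicate 9, with the most Krt19. The Xist-low log2 fold change was 1.44 (SE 0.34, adjusted p = 0.00452) with that library and 0.95 (SE 0.20, adjusted p = 0.00250) without it, and the call was lost without Ctrl replicate 7, 8 or 9. The 7th measured OATP, Slco4a1, stayed at or below 1.41 CPM and was not called.

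**Figure D2:**
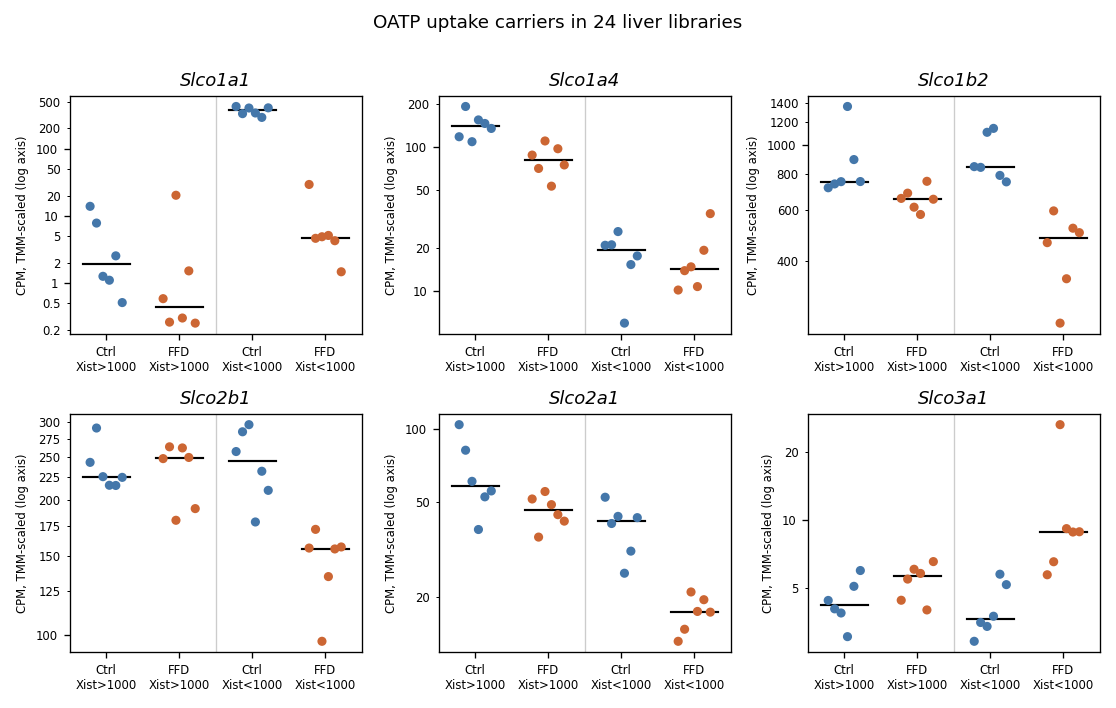
CPM (log axis) of 6 OATP genes in each of the 24 libraries, by diet and by Xist counts; each point is a library and each bar the median of 6. Slco1a1 separates the 2 diets in the libraries with Xist below 1000, where Ctrl libraries have at least 292 CPM and FFD libraries at most 29.3.

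Summed over the 7 OATPs per kb of exon, the level was 302 ± 37.3 CPM per kb in the Xist-low Ctrl libraries and 122 ± 29.8 in the Xist-low FFD libraries (SD, n = 6). The Xist-high libraries had 244 ± 48.7 on Ctrl and 190 ± 14.6 on FFD (SD, n = 6). Slco1a1 made up 23.2% of the Xist-low Ctrl sum and 1.31% of the FFD sum, while Slco1b2 made up 61.1% and 73.5% and Slco2b1 13.6% and 20.4%. The makeup of the Xist-high sum moved less, with 71.3% on Ctrl and 70.1% on FFD for Slco1b2. Slco2b1 made up 16.7% and 20.6% of it, and Slco1a4 9.18% and 6.75%.

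**Figure D3:**
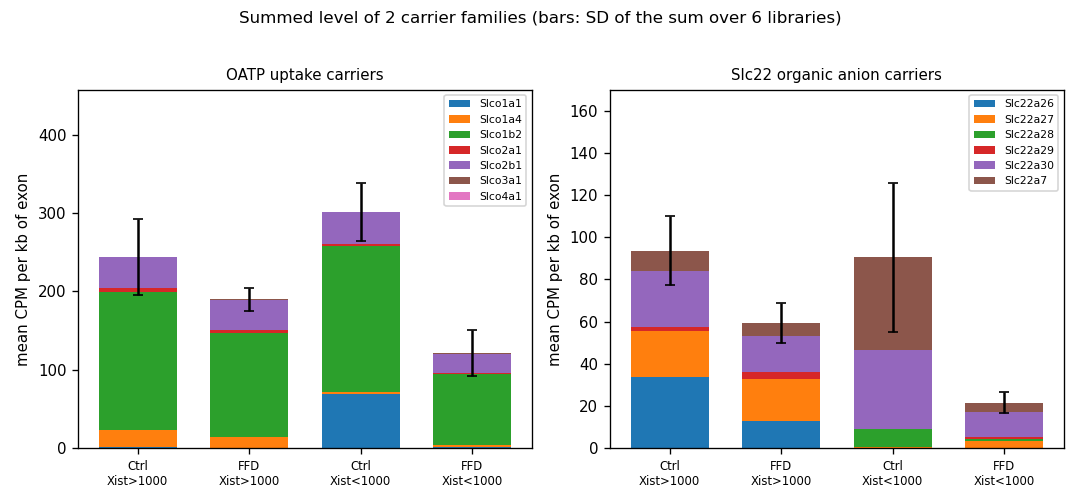
Mean CPM per kb of exon of each OATP (left) and of each Slc22 organic anion carrier (right), stacked, by diet and by Xist counts, with the SD of the sum over 6 libraries. Slco1a1 and Slc22a7 are large in the Ctrl libraries with Xist below 1000 and small in the other 3 groups.

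Of 6 measured Slc22 organic anion carriers 3 fell over all libraries, namely Slc22a7, Slc22a28 and Slc22a30, and 0 rose. Beside this, 4.99% of all tested genes fell and 13.2% rose. Slc22a26 to Slc22a30 lie side by side on chromosome 19 (chr19:7781041-8405111, GRCm38) and belong to a group of anion carriers that expanded in rodents. Slc22a28 and Slc22a30 share 98.8% of their coding bases, and 53.3% and 33.9% of their 51-base words occur in another annotated gene. Slc22a27 and Slc22a29 share 97.3% of their coding bases. The counting could therefore have split or lost reads between these neighbours, and their separate levels are uncertain. The letters before their starts are shown to let the pair be compared (RefSeq, GRCm38.p6, minus strand, chr19:8131983-8132232 for Slc22a28 and chr19:8405112-8405355 for Slc22a30). Capitals mark the 6 bases that differ over the 244 aligned columns, 238 of which are identical.
Slc22a28: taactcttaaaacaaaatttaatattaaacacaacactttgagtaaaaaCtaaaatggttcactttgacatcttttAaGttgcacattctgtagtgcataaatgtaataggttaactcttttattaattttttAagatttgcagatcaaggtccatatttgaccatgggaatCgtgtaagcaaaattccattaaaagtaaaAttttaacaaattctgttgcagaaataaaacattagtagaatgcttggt
Slc22a30: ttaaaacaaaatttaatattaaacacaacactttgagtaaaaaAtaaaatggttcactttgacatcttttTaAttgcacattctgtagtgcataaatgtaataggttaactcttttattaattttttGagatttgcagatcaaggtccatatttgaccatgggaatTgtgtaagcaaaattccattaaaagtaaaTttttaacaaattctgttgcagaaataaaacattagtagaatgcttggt

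Over these near-identical windows the pair had different levels. Slc22a30 had 71.2, 86.3 and 109 CPM in the Xist-high Ctrl libraries and 95.3, 126 and 159 in the Xist-low Ctrl libraries. Slc22a28 had at most 0.541 CPM in any Xist-high library and 8.04, 15.3 and 32.6 in the Xist-low Ctrl libraries. Counts of Slc22a28 were 0 to 0.743% of those of Slc22a30 in Xist-high libraries and 8.44% to 20.5% in Xist-low Ctrl libraries.

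Slc22a30 fell in both sets without overlap. On FFD it had 43.1, 56.8 and 70.1 CPM in the Xist-high libraries, with a log2 fold change of -0.61 (SE 0.13, adjusted p = 0.00735). That Xist-high call was lost in 7 of the 12 fits that left out a library. The Xist-low FFD libraries had 26.4, 40.7 and 50.1 CPM, with a log2 fold change of -1.63 (SE 0.15, adjusted p = 3.62e-06). The difference between the sets was -1.03 (SE 0.21, adjusted p = 0.00252) and was called in all 24 fits that left out a library. Slc22a28 fell in the Xist-low libraries to 0.488, 1.34 and 1.99 CPM, by 3.58 on the log2 scale (SE 0.37, adjusted p = 7.02e-06), and its difference between the sets (adjusted p = 0.0172) was not called.

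Slc22a7 (ENSMUSG00000067144, chr17:46432183-46438457, minus strand), the carrier OAT2 that exchanges organic anions at the sinusoidal membrane, was among the higher members of this list in Xist-low Ctrl libraries, with 48.0, 83.4 and 198 CPM. The Xist-low FFD libraries had 7.23, 8.44 and 14.2 CPM, all under every Ctrl library of the set. This was a log2 fold change of -3.29 (SE 0.33, adjusted p = 5.76e-06), or 9.76-fold lower. The Xist-high libraries had 7.11, 18.0 and 41.5 CPM on Ctrl and 9.61, 13.7 and 15.0 on FFD, and the diets overlapped (log2 fold change -0.65, SE 0.28, adjusted p = 0.143). The difference between the sets was -2.65 (SE 0.46, adjusted p = 0.000647), called in all 24 fits that left out a library. On FFD the level in the Xist-low libraries was thus within or below the range of the Xist-high libraries.

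The other 3 genes of the cluster were mainly found in the Xist-high libraries. Slc22a26 had 58.1, 98.2 and 144 CPM there on Ctrl and 15.1, 37.8 and 59.6 on FFD. It fell by 1.36 on the log2 scale (SE 0.27, adjusted p = 0.00472), with 5 of 6 FFD libraries under every Ctrl library. The highest of the 6 was FFD replicate 3, and the call was lost in 6 of the 12 fits that left out a library. Slc22a26 had at most 0.710 CPM in any Xist-low library. Slc22a27 had 39.1 to 53.1 CPM on Ctrl and 33.7 to 48.9 on FFD in the Xist-high libraries, without a call.

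Slc22a27 rose in the Xist-low libraries, from 0.197, 0.887 and 3.57 CPM on Ctrl to 0.719, 8.50 and 9.85 on FFD. FFD replicate 9 was the 1 low library, and the other 5 had at least 7.53 CPM, above every Ctrl library. The log2 fold change was 2.36 (SE 0.59, adjusted p = 0.00575) in the Xist-low and -0.14 (SE 0.11, adjusted p = 0.438) in the Xist-high libraries, and the difference was 2.48 (SE 0.56, adjusted p = 0.00530). The Xist-low call was lost in 8 of the 12 fits that left out a library, with adjusted p values of at most 0.0151. Slc22a29, its near copy, went from 0 to 1.43 CPM on Ctrl to 0.465 to 3.54 on FFD in the Xist-low libraries (log2 fold change 1.90, SE 0.59, adjusted p = 0.0206) and was not called. Without FFD replicate 9 it was called there, at 2.12 (SE 0.52, adjusted p = 0.00613).

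**Figure D4:**
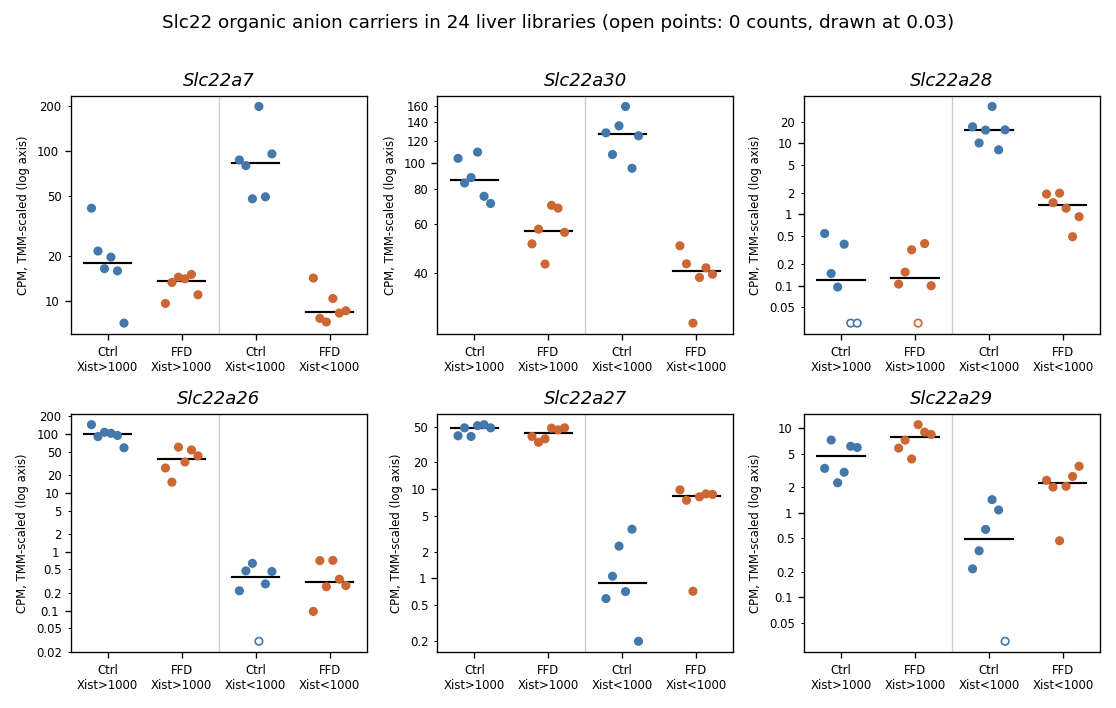
CPM (log axis) of 6 Slc22 organic anion carriers in each of the 24 libraries, by diet and by Xist counts; each point is a library, each bar the median of 6, and open points mark 0 counts. Slc22a30 is lower on FFD in both sets, and Slc22a7 and Slc22a28 are lower on FFD where Xist is below 1000.

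The summed level of these 6 carriers was 90.5 ± 35.4 CPM per kb in the Xist-low Ctrl libraries and 21.5 ± 4.92 in the Xist-low FFD libraries (SD, n = 6). The Xist-high sum was 93.6 ± 16.5 on Ctrl and 59.3 ± 9.39 on FFD (SD, n = 6). The 2 Ctrl sums were alike in size but not in makeup. Slc22a26 and Slc22a27 made up 35.4% and 24.1% of the Xist-high sum, and Slc22a7 and Slc22a30 made up 46.5% and 43.4% of the Xist-low sum.

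The 6 measured carriers of organic cations, zwitterions and carnitine gave no call in any set by edgeR, DESeq2 or limma-voom. Over all libraries 1 of them had an unadjusted p under 0.05 in edgeR, beside 8568 of all 17913 tested genes. The carnitine carrier Slc22a5 (OCTN2) had 40.2 to 95.5 CPM on Ctrl and 25.1 to 66.0 on FFD, with a log2 fold change of -0.47 (SE 0.16, adjusted p = 0.0228). Slc22a4 and Slc22a21, its close relatives, had at most 4.06 CPM, and Slc22a3 and Slc22a15 were also low, at median levels of 7.05 and 8.82 CPM on Ctrl. Slc22a5 and Slc22a21 share 89.4% of their coding bases, so reads between them could also have been split. Of the other Slc22 genes Slc22a17, reported to bind lipocalin 2, rose in the Xist-low libraries from 0.509, 1.43 and 2.61 CPM to 2.49, 3.54 and 7.95 (log2 fold change 1.62, SE 0.37, adjusted p = 0.00307). The highest value was again FFD replicate 9, and without it the log2 fold change was 1.34 (SE 0.33, adjusted p = 0.00685). Slc22a18 had 98.0 to 247 CPM, Slc22a23 65.5 to 195 and the pseudogene Slc22a13b-ps at most 0.259, and none of them was called.

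Of 8 measured ABCC proteins other than the canalicular pump Abcc2, most of them efflux pumps, 4 rose over all libraries and 0 fell. Beside this, 13.2% of all tested genes rose and 4.99% fell. Abcc1 (MRP1), which exports glutathione conjugates and leukotriene C4, had 1.37, 2.21 and 3.63 CPM on Ctrl and 4.24, 5.40 and 10.4 on FFD. Every FFD library was above every Ctrl library, with a log2 fold change of 1.41 (SE 0.18, adjusted p = 2.49e-06). It was the 1 member called higher in both sets, by 1.09 (SE 0.21, adjusted p = 0.00401) in the Xist-high and 1.73 (SE 0.25, adjusted p = 0.000117) in the Xist-low libraries. Leaving out a library ended the Xist-high call in 4 of 12 fits and the Xist-low call in 0 of 12.

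Abcc3 (MRP3), a basolateral pump of bile salts and glucuronides, was the most abundant of these 8 on FFD, per length as in CPM. The Ctrl libraries had 47.2, 193 and 300 CPM and the FFD libraries 151, 329 and 405, and the lowest FFD library was replicate 3. The log2 fold change was 0.83 (SE 0.22, adjusted p = 0.00432) over all libraries. Neither set gave a call, with 0.62 (SE 0.19, adjusted p = 0.0439) in the Xist-high and 1.09 (SE 0.35, adjusted p = 0.0241) in the Xist-low libraries. Without FFD replicate 3 the Xist-high value was 0.77 (SE 0.13, adjusted p = 0.00119).

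Abcc4 (MRP4), which exports bile salts with glutathione, cyclic nucleotides and steroid sulfates, has a match to TGACNNNGC, the core of the antioxidant response element, at 25 bases before the start of 1 of its RefSeq promoters. That window (RefSeq, GRCm38.p6, chr14:118706220-118706469, minus strand) is shown with the match in capitals, since this core is often looked for before genes of efflux pumps.
Abcc4: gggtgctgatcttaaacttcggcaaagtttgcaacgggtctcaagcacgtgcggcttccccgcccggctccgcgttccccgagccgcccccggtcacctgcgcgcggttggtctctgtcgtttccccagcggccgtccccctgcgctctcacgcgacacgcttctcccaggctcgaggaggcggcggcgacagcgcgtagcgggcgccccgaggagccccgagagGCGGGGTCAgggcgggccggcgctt
The core occurred, on either strand, in 10.2% of all 32851 promoters, in 9.09% of the 55 promoters of members and in 3 of the 10 promoters of members that rose in the Xist-low libraries. Of these 3, 2 were promoters of Abcc4 and 1 of Slc22a27. The 10 belong to 9 genes, and the RefSeq table had a promoter for 46 of the 61 members.

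Abcc4 rose in the Xist-low libraries from 0.815, 2.14 and 3.23 CPM to 4.69, 6.76 and 8.40, without overlap (log2 fold change 1.78, SE 0.29, adjusted p = 0.000264). The Xist-high libraries had more of it on Ctrl, with 5.46, 8.62 and 15.7 CPM, and 4.90, 16.3 and 20.2 on FFD. The lowest FFD value was replicate 3, and the Xist-high log2 fold change was 0.71 (SE 0.28, adjusted p = 0.104) with and 0.90 (SE 0.19, adjusted p = 0.00564) without it. The difference between the sets was 1.05 (SE 0.42, adjusted p = 0.120) and was not called.

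Abcc5 (MRP5), a pump of cyclic nucleotides and haem, had 3.46, 4.12 and 7.87 CPM in the Xist-low Ctrl libraries and 12.7, 14.1 and 19.9 in the Xist-low FFD libraries. The diets did not overlap, and the log2 fold change was 1.68 (SE 0.20, adjusted p = 2.20e-05). The Xist-high value was 0.41 (SE 0.13, adjusted p = 0.0439), from 6.29 to 10.4 CPM on Ctrl and 9.13 to 12.7 on FFD. The difference of 1.26 between the sets (SE 0.24, adjusted p = 0.00126) was called in all 24 fits that left out a library. Abcc12, of which the substrates are little known, rose from 0, 0.174 and 0.784 CPM to 0.213, 1.0 and 2.33 over all libraries, by 2.11 (SE 0.41, adjusted p = 0.000258), on 0 to 55 counts per library. Abcc12 was called in the Xist-low (2.17) and not in the Xist-high libraries (2.06), and the difference between the sets was not called. Abcc6 (MRP6), a basolateral hepatocyte protein linked to ATP release, went the other way in the Xist-low libraries. It fell there from 207 to 330 CPM down to 116 to 171, by 0.79 (SE 0.14, adjusted p = 0.000416). Abcc9, a regulatory subunit of potassium channels and not a pump, and Abcc10, at 9.27 to 52.6 and 11.4 to 20.7 CPM, were not called.

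**Figure D5:**
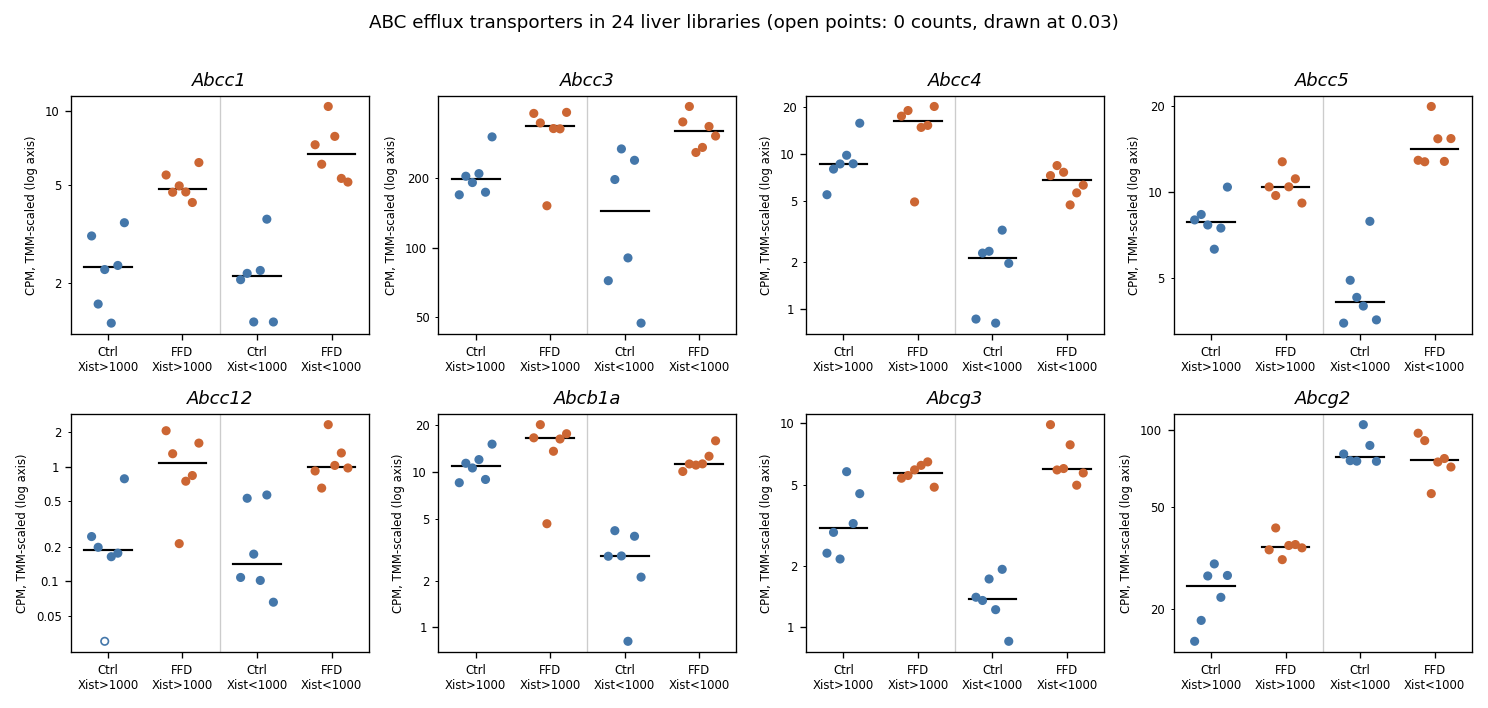
CPM (log axis) of 8 ABC efflux genes in each of the 24 libraries, by diet and by Xist counts; each point is a library, each bar the median of 6, and open points mark 0 counts. FFD replicate 3 is the low point of the FFD libraries with Xist above 1000 for Abcc3, Abcc4, Abcc12 and Abcb1a, and Abcc1 is higher on FFD in both sets.

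Over all libraries edgeR called 0 of the 5 canalicular pumps and DESeq2 and limma-voom 1 each. In edgeR Abcb1a alone had an unadjusted p under 0.05 (adjusted p = 0.0217), beside 8568 of all 17913 tested genes. Abcb1a, which encodes a P-glycoprotein that expels drugs, lies beside Abcb1b and Abcb4 on chromosome 5 and shares 87.7% of its coding bases with Abcb1b. It had 0.815, 2.87 and 4.18 CPM in the Xist-low Ctrl libraries and 10.04, 11.2 and 15.8 in the Xist-low FFD libraries, without overlap (log2 fold change 2.09, SE 0.26, adjusted p = 3.00e-05). In the Xist-high libraries it had 8.50, 11 and 15.04 CPM on Ctrl and 4.64, 16.4 and 20.1 on FFD, the lowest again in replicate 3. The log2 fold change there was 0.42 (SE 0.25, adjusted p = 0.286) with that library and 0.61 (SE 0.14, adjusted p = 0.00926) without it. The difference between the sets was 1.65 (SE 0.38, adjusted p = 0.00588), and 18 of the 24 fits that left out a library kept this call. Of the 51-base words of Abcb1a, 22.3% also occur in another annotated gene.

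The other canalicular pumps were not called by edgeR with all libraries of either set. Abcb4, the phosphatidylcholine flippase, had 249 to 357 CPM on Ctrl and 235 to 380 on FFD (log2 fold change 0.07, SE 0.09, adjusted p = 0.582). Abcc2 (MRP2), the pump of bilirubin and other conjugates, had 195 to 536 on Ctrl and 229 to 435 on FFD (log2 fold change -0.26, SE 0.13, adjusted p = 0.116), a value that came to 0.00 with library totals as the scale. Abcg2, a pump of urate and sulfates, had 14.9 to 29.9 CPM in the Xist-high Ctrl and 31.1 to 41.3 in the Xist-high FFD libraries. Those did not overlap, but the adjusted p of 0.0110 was just above the threshold (log2 fold change 0.62, SE 0.14), and it was 0.00714 without FFD replicate 3. In the Xist-low libraries Abcg2 had 75.3 to 105 CPM on Ctrl and 56.3 to 97.0 on FFD. Abcb1b stayed at or below 4.14 CPM and was not called. Abcg3, a rodent relative of Abcg2, rose in the Xist-low libraries from 0.855, 1.38 and 1.93 CPM to 4.97, 5.96 and 9.85 without overlap (log2 fold change 2.25, SE 0.22, adjusted p = 5.23e-06). In the Xist-high libraries it had 2.16 to 5.79 CPM on Ctrl and 4.86 to 6.47 on FFD (log2 fold change 0.73, SE 0.21, adjusted p = 0.0342), and the difference of 1.51 between the sets was called (SE 0.32, adjusted p = 0.00314). Abcg4, at most 0.799 CPM, was not called.

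Lipid transporters of the ABCA subfamily moved both ways. Of 10 measured, Abca6 and Abca8a fell and Abca9 rose over all libraries, all 3 of them from a run of genes on chromosome 11 that also holds Abca5 and Abca8b. Beside this, 4.99% of all tested genes fell and 13.2% rose. Abca6 had 80.6, 128 and 183 CPM on Ctrl and 33.7, 69.4 and 92.2 on FFD, with a log2 fold change of -0.86 (SE 0.15, adjusted p = 8.70e-05) and 7 of 12 FFD libraries under every Ctrl library. Abca8a went from 36.8, 60.3 and 85.0 CPM to 26.2, 30.4 and 47.6 (log2 fold change -0.78, SE 0.13, adjusted p = 4.52e-05). Both were also called in each set, with -0.63 and -1.12 for Abca6 and -0.69 and -0.86 for Abca8a. Leaving out a library ended the Xist-high call in 9 of 12 fits for Abca6 and 7 of 12 for Abca8a, and the Xist-low call in 0 of 12 and 6 of 12. Abca9, at 1.63 to 4.81 CPM on Ctrl and 3.46 to 6.44 on FFD, rose by 0.71 (SE 0.18, adjusted p = 0.00241). Abca9 was called in the Xist-low (1.25) and not in the Xist-high libraries (0.29), and the difference between the sets was not called. Abca8b, at 22.5 to 51.3 CPM on Ctrl and 23.2 to 38.8 on FFD, was not called. Abca5, named after its values were seen, rose by 0.56 in the Xist-low libraries (SE 0.14, adjusted p = 0.00669), and 9 of 12 fits that left out a library lost that call. The other 5 members, Abca2, Abca3, Abca4, Abca7 and Abca14, were not called.

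Organelle transporters fell where they were called over all libraries. Abcd3, which brings branched-chain and bile acid precursors into the peroxisome, had 484, 578 and 740 CPM on Ctrl and 209, 376 and 462 on FFD. Every FFD library was under every Ctrl library, with a log2 fold change of -0.70 (SE 0.11, adjusted p = 2.80e-05). It was -0.42 (SE 0.11, adjusted p = 0.0219) in the Xist-high and -1.0 (SE 0.14, adjusted p = 0.000102) in the Xist-low libraries. The medians of the hepatocyte markers there were -0.43 and -0.98, and a link between them and Abcd3 was not tested. Abcb10, a mitochondrial protein of haem synthesis, fell from 20.9, 28.8 and 52.2 CPM to 17.0, 19.4 and 23.3 (log2 fold change -0.71, SE 0.12, adjusted p = 5.68e-05). Abcb10 was called in the Xist-low (-1.01) and not in the Xist-high libraries (-0.34), and the difference between the sets was not called.

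The organelle proteins Abcb6, Abcb8, Abcb9, Abcd2 and Abcd4 were not called, and Abcd2, at 50.5 to 77.6 CPM in Xist-high and 4.89 to 18.9 in Xist-low Ctrl libraries, was 20.0 in FFD replicate 3 against 45.2 to 58.1 in the other Xist-high FFD libraries. The 4 soluble ABCE and ABCF proteins, which act on ribosomes and translation, gave no call by edgeR, DESeq2 or limma-voom. Over all libraries 3 of them had an unadjusted p under 0.05 in edgeR, beside 8568 of all 17913 tested genes. The log2 fold changes of the 4 were between -0.33 and -0.11.

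The levels of 13 members differed by more than 1 on the log2 scale between the Xist-high and Xist-low Ctrl libraries (21.3%, beside 6.27% of all tested genes), and those of 12 members between the FFD libraries (19.7%, beside 7.47%). Of these, 10 were the same genes. The gap was largest for Slc22a26 (-7.80, lower in Xist-low Ctrl libraries) and Slco1a1 (6.32, higher there), with mean CPM plus 0.1 as the scale. On FFD these gaps were -6.28 and 1.08, and the latter rested on FFD replicate 3, without which it was 3.62. For Slc22a7 the gap went from 2.19 on Ctrl to -0.45 on FFD, for Slc22a28 from 5.80 to 2.37, for Slc22a27 from -4.96 to -2.51 and for Abcb1a from -1.95 to -0.30. Over all members the gap was narrower on FFD for 30 of 61 (49.2%), beside 48.4% of all tested genes.

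Transporters outside the chosen symbols gave context. Of the sterol and bile salt ABC genes, Abcg1 (log2 fold change 1.81, SE 0.15, adjusted p = 2.07e-08) and Abcg5 (0.74, SE 0.16, adjusted p = 0.000651) rose over all libraries, and Abca1, Abcg8 and Abcb11 were not called. Abcb11 (BSEP, the bile salt export pump) fell in the Xist-low libraries (-0.69, SE 0.14, adjusted p = 0.00173), and its Xist-high value was -0.15 (SE 0.15, adjusted p = 0.559). Of 12 other transporters and transport proteins, Slc10a1 (NTCP, the sodium-dependent bile salt carrier, -1.46, SE 0.24, adjusted p = 5.13e-05) and Slc10a5 fell over all libraries and 0 rose. Beside these lists, 13.2% of all tested genes rose and 4.99% fell. Slc10a2 (ASBT), the bile salt carrier of cholangiocytes and ileum, rose in the Xist-high libraries (1.66, SE 0.34, adjusted p = 0.00581) and fell in the Xist-low libraries (-0.79, SE 0.19, adjusted p = 0.00421), and the difference of -2.45 was called (SE 0.42, adjusted p = 0.000613). The 14 regulators of transporter genes were transcription factors and Keap1, which directs Nfe2l2 to degradation. Of these, 0 were called over all libraries by edgeR, DESeq2 or limma-voom. In edgeR 8 had an unadjusted p under 0.05, beside 8568 of all 17913 tested genes. Nr1i3 (CAR) was the 1 that edgeR called in the Xist-low libraries, where it fell (-0.99, SE 0.19, adjusted p = 0.000886). Nr1h4 and Nfe2l2 had adjusted p values of 0.000256 and 3.13e-05 over all libraries, with log2 fold changes of -0.37 and 0.40 that did not reach 0.5.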

How the data were processed

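Poly(A) RNA of whole mouse livers extracted with Trizol was sequenced, giving 24 libraries, 12 per diet. Per the labels reads were processed with bcl2fastq and STAR 2.7.3a against mm10, and the authors deposited unnormalized read counts per Ensembl gene. The study's methods name a stranded mRNA kit, an exon quantification pipeline and PISCES, but for reads aligned to a human reference. Which program made these mouse counts, its strand setting and its annotation are not given in the sources used here. Symbols, coordinates and exon lengths came from GENCODE M21 (GRCm38). Symbols were found for 51745 identifiers, and the 4460 without one held 0.0723% of counts. Groups came from the labelled diet.

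Genes were tested if 12 or more libraries had 1 or more counts of them, with edgeR 4.0.16 in R 4.3.3 (TMM, quasi-likelihood, diet as the one term) with Benjamini-Hochberg adjustment over 17913 genes. The same test was run within the Xist sets, and the difference of the diet effect between the sets was tested as an interaction term. Alternatives used DESeq2 1.42.0, limma-voom (limma 3.58.1), other scalings, filters and thresholds, a term for the set, a block for the replicate number, and each library left out in turn. Within the sets, 4 of these were added after seeing the data. The tests were tried on simulated counts. The members and lists were chosen with earlier results of these data known. Named genes were the called members with a mean of at least 10 counts (up to 20 by size of change), a list of main liver transporters, members called in the interaction test and paralogs of these at 70% identity or more. Identity was computed on coding bases in place of protein. No library was dropped. Results of a few members are not reported here.

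RefSeq promoters (GRCm38.p6) were searched on both strands over 250 bases before the start for the nuclear receptor hexamer AGGTCA, the TATA box TATAAA, the antioxidant response element core TGACNNNGC, the STAT5 site TTCNNNGAA and an HNF1 site. TTCNNNGAA matched 7.02% of all promoters and 9.09% of the members' promoters, and the HNF1 site 0.00913% and 0%. Matches of different motifs may overlap. Depth was 14468418 to 22112552 counts per library, so genes of a few counts are the least precise.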

Additional observations from a re-analysis of the deposited data

Results flagged for a closer look

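The diet effect on 7 members differed between the Xist-low and the Xist-high libraries by a test of the difference itself, the interaction of diet and set in edgeR. The difference (Xist-low minus Xist-high log2 fold change) was -5.24 for Slco1a1, -2.65 for Slc22a7, -1.03 for Slc22a30, 2.48 for Slc22a27, 1.65 for Abcb1a, 1.51 for Abcg3 and 1.26 for Abcc5. Slc22a7, Slc22a30, Abcg3 and Abcc5 were called in all 24 fits that left out a library, Slc22a27 in 22, Abcb1a in 18 and Slco1a1 in 10. The sets were formed from Xist counts and are not groups of the labels.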

How the results depend on the processing

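Of the all-library calls, a log2 threshold of 1 left 3 higher and 4 lower, and an adjusted p of 0.05 with no fold threshold gave 19 lower. DESeq2 called 5 higher in the Xist-high libraries, where scaling by library totals left 2 lower. That scaling left 6 lower in the Xist-low libraries. The interaction was called for 12 members by DESeq2 and for 15 at an adjusted p of 0.05. Leaving out each library in turn gave 8 to 9 higher and 9 to 10 lower over all libraries, 0 to 7 and 0 to 5 in the Xist-high, 8 to 12 and 11 to 14 in the Xist-low libraries, and 4 to 10 members in the interaction test, with 4 without Ctrl replicate 7. All 17 all-library calls were kept in all 24 of these fits. The Xist-high counts (higher and lower) were 1 and 1 without Ctrl replicate 1, 0 and 0 without Ctrl replicate 2, 0 and 1 without Ctrl replicate 3, 3 and 2 without Ctrl replicate 4, 1 and 3 without Ctrl replicate 5, 4 and 5 without Ctrl replicate 6, 0 and 0 without FFD replicate 1 or 6, 1 and 2 without FFD replicate 2, 7 and 5 without FFD replicate 3, 1 and 1 without FFD replicate 4, and 1 and 3 without FFD replicate 5.

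With the replicate number as a block, 8 members were called higher and 11 lower. Same-numbered libraries correlated over 0.1 for 11 of 12 numbers and at -0.0935 for number 9, after the diet means were removed. They also share an Xist set, which was not removed, so these correlations cannot tell a pairing from the set. Only 2 of 12 libraries correlated best with their own number, and the number was not taken as a pairing.

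None of these values that changed sign was a call. Under library totals these were, over all libraries, Abca8b 0.032 and Abcc2 0.0025, in the Xist-high libraries Slco2b1 0.089, and in the Xist-low libraries Abca8b 0.15, Abcc2 0.070, Abcg2 0.38, Slc22a21 0.14, Slc22a4 0.13, Slc22a5 0.047 and Slco1a4 0.37. Under limma-voom Slc22a28 was 0.27 in the Xist-high libraries. With each library left out in turn, Slc22a27 was -0.11 to 0.19 over all libraries. In the Xist-high libraries Slc22a28 was -0.50 to 0.50, Slco1a1 -2.97 to 0.55 and Slco2b1 -0.067 to 0.056. In the Xist-low libraries Abcg2 was -0.15 to 0.0039, Slc22a26 -0.10 to 0.41 and Slco1a4 -0.36 to 0.094. The cause of these changes was not tested. Genes of a few counts, such as Slc22a28 in the Xist-high libraries, are limited by depth.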
